A study of Arabidopsis thaliana with 27 samples.

Results

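Transcript levels of leaf reference cells differed between plants given 2 h of high light and plants kept at low light. In this series, 6 of the 27 RNA-seq libraries describe that response. Reference cells are the chlorophyll-containing protoplasts without mCitrine fluorescence, sorted from first true leaves of Arabidopsis (Arabidopsis thaliana) plants carrying *IQD22*pro::*GUS-mCit*, a transgene in which the *IQD22* promoter, active in the palisade mesophyll, drives a GUS-mCitrine fusion. All plants were grown for 17 d under constant white light of 50 µmol photons per square metre and second. The 3 high light libraries came from plants moved to 300 µmol for 2 h directly before the leaves were digested, and the 3 low light libraries came from plants that stayed at 50 µmol. Digestion took a further 2 h in a light chamber, with the transcription inhibitors actinomycin D and cordycepin present in all 6 samples. No protoplast pool held both light levels, so a difference between preparations cannot be told apart from the light level. The population is defined by the absence of the reporter, so it is a mixture that can hold spongy mesophyll, bundle sheath and other green cells, and each sample pools many leaves. Whether palisade cells with little reporter were also present was not tested. The 6 libraries are those whose labels give this line, gate, inhibitors and light level, and 19353 of 33323 nuclear genes had enough counts to be tested.

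Leaves adjust to stronger light on several levels. Photoreceptors and chloroplast signals act on a small set of transcription factors: *HY5* and its relatives promote light-regulated genes and are degraded through the *COP1*-SPA complex, whereas the PHYTOCHROME INTERACTING FACTORS (PIFs) promote shade and elongation genes and are removed in light. Downstream, leaves usually make fewer light-harvesting antennae and more photoprotective proteins, antioxidants and flavonoids, which screen short wavelengths. Strong light also raises the flux through photorespiration and can evoke heat shock and oxylipin responses.

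The 6 libraries held 15823671 to 19233615 counts on genes, so that 3 counts, used here as the floor, equal 0.156 to 0.190 CPM, counts scaled to a common library total. High light libraries had more reads left uncounted because they overlapped several genes (0.596% to 0.650%) than low light libraries (0.391% to 0.432%). Fewer of their reads aligned to several places in the genome (5.47% to 7.06% against 7.34% to 8.69%). They also had more mitochondrial counts (0.0191% to 0.0273% against 0.0107% to 0.0136%). A smaller share of their nuclear counts lay on their 10 most counted genes (8.93% to 10.4% against 12.2% to 13.4%). Low light replicate 1 and high light replicate 1 differed more from the other libraries of their group (chi-square per degree of freedom 19.8 to 36.1) than the remaining replicates did from each other (5.42 and 11.4). *IQD22* was counted at 11.6, 11.9 and 13.6 CPM in the low light reference libraries and 44.6, 53.2 and 51.6 CPM in the palisade libraries of the same pools, on the scale of these 12 libraries. Other cell types were sparsely marked: the epidermal gene *PDF1* had no count in any of the 6 libraries, the guard cell regulator *FAMA* reached at most 0.468 CPM, and the summed level of 5 epidermal markers was 8.07 to 13.7 CPM at low and 4.68 to 13.1 CPM at high light. The 6 vascular and bundle sheath markers summed to 68.1 to 102 CPM at low and 64.4 to 130 CPM at high light, with the highest value in high light replicate 1, where the phloem sucrose transporter *SUC2* was at 22.9 CPM against 4.79 and 7.40 CPM in the other high light libraries. By the rule given below (a false discovery rate, FDR, under 0.05 and over 2-fold), 0 of these 6 genes and 0 of 4 epidermal genes tested were called. Of all tested genes 16.6% were called in either direction, so these few markers cannot show whether the cell mixture was the same. The sugar exporter gene *SWEET11* (0.66 ± 0.23, FDR 0.0342) and the sulfate transporter gene *SULTR2;2* (-0.60 ± 0.15, FDR 0.00792) passed the FDR. Without high light replicate 1, 2 of the 4 epidermal genes were called lower, with a median of -0.95 in place of -0.33, and without high light replicate 2, 1 vascular gene was called higher. Of 4 guard cell genes tested 1 was called, the potassium channel gene *KAT1*, on 3 counts at low and 22 counts at high light. Their part in the results was not tested.

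A gene was called when its false discovery rate (FDR, Benjamini-Hochberg over all genes tested, edgeR's quasi-likelihood test) was below 0.05 and its fold-difference above 2. By this rule 1949 genes (10.1% of those tested) were higher and 1272 (6.57%) lower at high light. The median called gene rose 3.21-fold or fell 2.54-fold, and 717 genes rose but 250 fell by more than 4-fold. The 3 high light values lay wholly above the 3 low light values for 1913 of the genes called higher, and wholly below them for 1251 of the genes called lower. In sorted cells measured in bulk, fewer cells of a type and less RNA per cell cannot be told apart. The split between both directions depended on the scaling: 60.5% of calls were higher here, but 75.5% (2582 higher and 839 lower) when scaling and dispersion came from all 27 libraries, which moved the median over all genes by 0.19 on the log2 scale. Fold changes below are relative to the scaling of the 6 libraries and are given on the log2 scale with their standard error (SE).

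**Figure D1:**
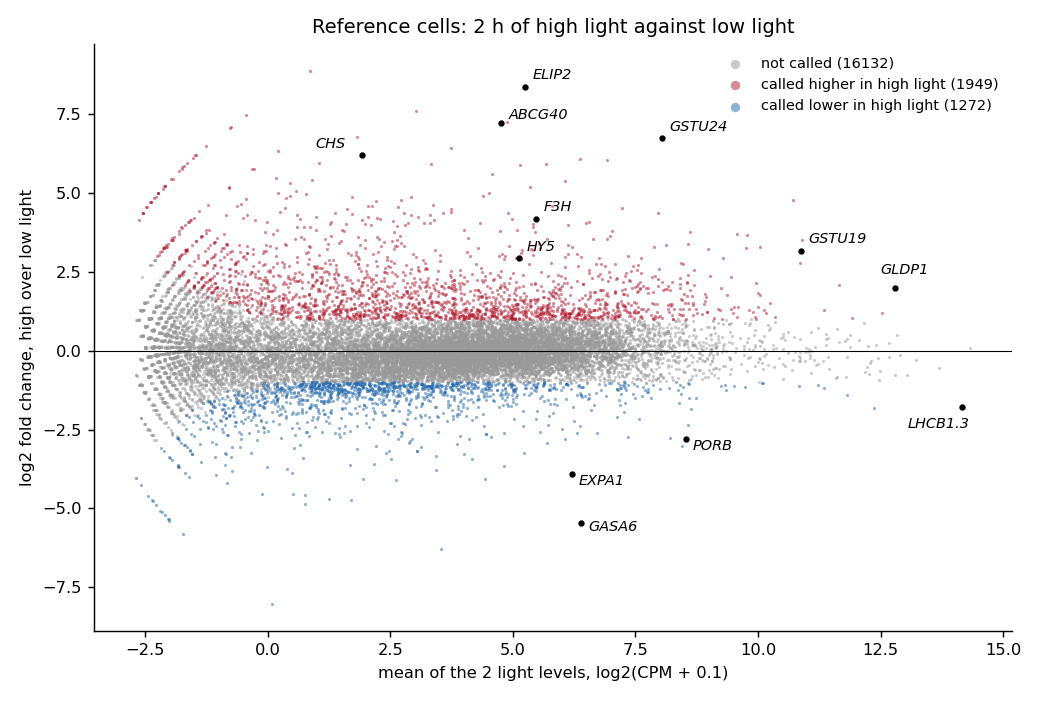
Light response of reference cells. Each point is 1 of 19353 tested nuclear genes, with the mean level of both light levels as log2(CPM + 0.1) on the x axis and the log2 fold change of high over low light on the y axis; 1949 genes called higher are red, 1272 called lower blue and the others grey. Large rises such as those of *ELIP2*, *GSTU24* and *CHS* start from low levels, while genes such as *LHCB1.3* and *GLDP1* changed at the most counted end.

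Among called genes that did not overlap between light levels and reached a mean of 5 CPM, the largest rises were those of a pair of light stress proteins. *ELIP2* and *ELIP1* encode EARLY LIGHT-INDUCIBLE PROTEINS, chlorophyll-binding proteins of the thylakoid that accumulate under excess light. *ELIP2* (AT4G14690) was counted at 0.548, 0 and 0.0585 CPM at low light and 110.4, 65.3 and 51.4 CPM at high light. *ELIP1* (AT3G22840) was counted at 0.149, 0.0607 and 0 CPM at low light and 21.5, 14.3 and 12.03 CPM at high light. All 3 high light libraries stood far above the low light libraries for both genes, with a log2 fold change of 8.36 ± 0.50 for *ELIP2* (FDR 3.14e-07) and 7.60 ± 0.44 for *ELIP1* (FDR 2.54e-07), and the 3 low light libraries of each were at or near the floor, so the size of the fold is loosely set. *CHS* (AT5G13930), for chalcone synthase, the first enzyme of flavonoid synthesis, was counted at 0.149, 0.0607 and 0.0585 CPM at low light and 9.66, 4.91 and 7.35 CPM at high light (log2 fold change 6.18 ± 0.44, FDR 1.24e-06). Its 3 low light values were at or below the floor, so the size of this fold is loosely set too.

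The start regions of these light-induced genes are shown because all 5 genes rose at high light. The sequences are the 250 bases before the annotated start of the gene, read 5′ to 3′ on the gene's own strand from TAIR10.1 (RefSeq), an assembly version that was not used to count the reads. They lie at chr3:8085670-8085919 (minus strand) for *ELIP1*, chr4:8417992-8418241 (plus) for *ELIP2*, chr5:4488226-4488475 (plus) for *CHS*, and chr3:19024942-19025191 (plus) and chr5:2803583-2803832 (plus) for the flavonoid genes *F3H* and *FLS1* described below. Capitals mark 3 motifs found on either strand: the G-box CACGTG, bound by bZIP factors such as *HY5* and by bHLH factors such as PIFs, the evening element AAATATCT of clock-regulated genes, and the I-box GATAAG, which is CTTATC on the other strand.
ELIP1: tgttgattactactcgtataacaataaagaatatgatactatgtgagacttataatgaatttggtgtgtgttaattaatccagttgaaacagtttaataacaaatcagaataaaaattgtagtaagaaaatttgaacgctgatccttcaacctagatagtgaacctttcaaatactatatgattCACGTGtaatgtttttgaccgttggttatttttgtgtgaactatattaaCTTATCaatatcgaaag
ELIP2: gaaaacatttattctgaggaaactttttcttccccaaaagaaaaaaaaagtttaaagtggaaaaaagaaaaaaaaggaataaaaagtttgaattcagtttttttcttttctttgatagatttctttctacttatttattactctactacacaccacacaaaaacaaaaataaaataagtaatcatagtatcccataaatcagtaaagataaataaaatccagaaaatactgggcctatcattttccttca
CHS: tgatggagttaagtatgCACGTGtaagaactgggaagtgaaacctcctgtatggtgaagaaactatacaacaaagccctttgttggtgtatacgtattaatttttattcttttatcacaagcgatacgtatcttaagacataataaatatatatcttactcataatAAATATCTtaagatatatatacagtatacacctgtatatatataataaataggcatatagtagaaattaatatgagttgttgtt
F3H: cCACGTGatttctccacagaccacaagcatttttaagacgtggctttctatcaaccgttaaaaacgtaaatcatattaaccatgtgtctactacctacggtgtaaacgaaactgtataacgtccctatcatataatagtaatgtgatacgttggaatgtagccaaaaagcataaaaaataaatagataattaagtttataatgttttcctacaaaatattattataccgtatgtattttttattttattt
FLS1: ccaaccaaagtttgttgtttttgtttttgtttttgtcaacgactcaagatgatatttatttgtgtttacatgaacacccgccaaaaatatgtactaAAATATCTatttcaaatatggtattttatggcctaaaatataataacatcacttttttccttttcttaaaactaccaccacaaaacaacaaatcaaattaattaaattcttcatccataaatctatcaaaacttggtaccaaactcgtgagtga
The G-box begins 66 bases before the start of *ELIP1*, 233 before that of *CHS* and 249 before that of *F3H*, where the window overlaps the neighbouring gene AT3G51238. *ELIP1* also has an I-box at 17 bases, and an evening element lies 84 bases before *CHS* and 154 before *FLS1*. The window of *ELIP2* holds none of these motifs, although its transcript had the largest fold change of those named here. A match is a string of letters, not a binding site.

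Over all genes, most motif shares differed by a few percentage points. In promoters taken from 250 bases before to 50 after the start, a G-box was present in 11.5% of 1947 genes called higher, 7.55% of 1272 called lower and 8.96% of 19328 genes tested. The heat shock element, searched as GAANNTTC or TTCNNGAA, stood in 22.9%, 17.61% and 19.3%, and the evening element in 7.81%, 6.60% and 5.90% of the same promoters. For CGCGT, a calcium-response motif, the shares were 10.7%, 8.18% and 9.87%, and for the I-box 14.8%, 16.04% and 14.9%. The telo-box AAACCCTA, frequent in genes of the translation machinery, was found in 2.77% of promoters of genes called higher and 5.19% of those called lower, against 5.81% of all. Among lists, 13 of 19 heat shock protein genes had the heat shock element. The G-box was in 9 of 19 clock genes, 4 of 8 ER chaperone genes, 5 of 18 jasmonate genes, 4 of 11 flavonoid enzyme genes and 2 of 15 genes of the *COP1*, *HY5* and B-box list. Motifs can overlap each other, and these shares were not tested.

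Light-signalling genes are described from the receptors down. Of 7 photoreceptor genes 0 were called in either direction by edgeR or DESeq2, where 16.6% of all tested genes were called by edgeR, although 2 higher and 2 lower genes had an FDR below 0.05 within the 2-fold limit. The values differed in sign: *PHYA*, the phytochrome of dim and far-red light, had 61.7, 61.7 and 78.0 CPM at low light and 40.1, 38.6 and 40.4 CPM at high light (log2 fold change -0.76 ± 0.12, FDR 0.000368), and *PHYB*, the main red light receptor, 51.7, 50.4 and 52.9 CPM at low light and 72.5, 72.2 and 68.8 CPM at high light (log2 fold change 0.46 ± 0.10, FDR 0.00251). *PHOT1*, a blue light receptor of phototropism and chloroplast movement, was likewise separated between the light levels, with a log2 fold change of -0.79 ± 0.12, but it too stayed under the 2-fold limit. The median of the receptor list was 0.08, and -0.01 with upper-quartile scaling.

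Of 15 genes around *COP1*, *HY5* and the B-box factors, 8 were called higher and 0 lower, where 10.1% of all tested genes were higher. *HY5*, the bZIP factor that promotes light-induced genes, had 8.21, 8.44 and 7.60 CPM at low light and 69.3, 59.1 and 56.0 CPM at high light, and all high light libraries lay several-fold above all low light libraries (log2 fold change 2.92 ± 0.13, FDR 3.23e-08). Its close relative *HYH* had 13.7, 15.2 and 11.8 CPM at low light and 64.9, 49.5 and 41.9 CPM at high light, again without overlap (log2 fold change 1.94 ± 0.17, FDR 5.40e-06). *RUP1* and *RUP2*, which inactivate the UV-B receptor *UVR8*, rose by 2.49 ± 0.48 and 1.92 ± 0.18 on the log2 scale (FDR 0.00155 and 1.13e-05). Of the B-box genes, *BBX22*, a promoter of light responses that acts with *HY5*, had 7.42, 11.1 and 15.74 CPM at low light and 35.8, 38.05 and 37.0 CPM at high light (log2 fold change 1.70 ± 0.21, FDR 6.75e-05). *BBX31*, *BBX32* and *BBX24* were also called higher (1.88, 1.16 and 1.04), though *BBX24* lost its call without low light replicate 1 and *BBX32* without low light replicate 3. *COP1*, the ubiquitin ligase that targets *HY5*, was at 35.7, 30.7 and 28.5 CPM at low light and 47.1, 46.6 and 45.0 CPM at high light (log2 fold change 0.55 ± 0.11, FDR 0.00254), a separation of the groups that stayed below 2-fold, as did its partner *SPA1* (0.60 ± 0.11).

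Genes of PIF and shade signalling moved the other way. Of 12 tested of 17, 8 were called lower and 0 higher, with 6.57% of all genes called lower, and the median log2 fold change was -1.14. *PIF5* was at 85.2, 136 and 136 CPM at low light and 55.4, 51.1 and 52.6 CPM at high light, and every high light value lay below every low light value (log2 fold change -1.17 ± 0.16, FDR 0.000175). *PIF4*, another promoter of elongation, was at 69.3, 102 and 158 CPM at low light and 46.1, 49.1 and 57.1 CPM at high light (log2 fold change -1.11 ± 0.23, FDR 0.00259). *PIF3* fell by 1.07, whereas *PIF7*, the main PIF of shade avoidance, had a positive value of 0.58 ± 0.13 that did not reach 2-fold. Among the targets, *HFR1*, an atypical bHLH protein that restrains PIFs, was at 2.69, 1.94 and 4.15 CPM at low light and 0.414, 0.701 and 0.891 CPM at high light (log2 fold change -2.09 ± 0.38, FDR 0.001). The HD-ZIP II genes *HAT1*, *HAT2* and *HAT3*, induced by shade, fell by 1.75, 1.71 and 1.19 on the log2 scale (FDR 0.000258, 0.000143 and 0.000971), and *ATHB2* of the same family had a log2 fold change of -0.97 ± 0.22, just inside the limit. *PAR1*, another inhibitor of shade growth, rested on 37 counts at low and 3 counts at high light, a ratio of 0.0878 (95% counting interval 0.0173 to 0.277). The number of calls was 6 without low light replicate 3 and 4 with the scaling of all 27 libraries, under which *PIF3*, *PIF4*, *PIF5* and *HAT3* lost theirs.

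Photoprotection genes other than the ELIP pair had smaller fold changes. Of 16 genes 4 were called higher (10.1% of all genes were) and 0 lower, with a median of 0.56 against -0.02 over all genes. The 2 others called were *BCH1* and *BCH2*, which encode beta-carotene hydroxylases that supply the xanthophyll cycle. *BCH1* was at 91.4, 75.9 and 61.5 CPM at low light and 243, 182 and 181 CPM at high light (log2 fold change 1.404 ± 0.16, FDR 4.39e-05). *BCH2* was at 31.96, 46.9 and 41.8 CPM at low light and 164, 125 and 124 CPM at high light (log2 fold change 1.78 ± 0.16, FDR 7.20e-06). Neither gene overlapped between light levels. *PSBS*, the sensor protein of energy-dependent quenching, was at 1787, 1933 and 1512 CPM at low light and 2945, 2416 and 2488 CPM at high light, also without overlap, but its log2 fold change of 0.59 ± 0.15 was under the limit. The xanthophyll cycle enzymes *VDE* and *ZEP* had log2 fold changes of 0.61 ± 0.12 and 0.51 ± 0.15, and *LIL3:1*, a light-harvesting-like protein that anchors chlorophyll synthesis enzymes, had -0.90 ± 0.12.

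Antioxidant genes were called higher in 6 of 16 cases and lower in 0, against 10.1% and 6.57% of all genes. The strongest was *GPX7*, a chloroplast glutathione peroxidase, at 2.84, 3.03 and 2.34 CPM at low light and 54.5, 61.0 and 55.2 CPM at high light (log2 fold change 4.37 ± 0.14, FDR 5.09e-09). The 3 high light libraries were alike and far above the low light libraries, although 43.9% of the exon bases of *GPX7* are shared with another counted gene. *APX1*, the cytosolic ascorbate peroxidase, was at 582, 379 and 318 CPM at low light and 1117, 1059 and 1164 CPM at high light (log2 fold change 1.38 ± 0.19, FDR 0.000175). *CAT2*, the main leaf catalase, which removes photorespiratory hydrogen peroxide, was among the 5 most counted genes called higher, at 4530.0, 3604 and 2619.5 CPM at low light and 10277, 7211 and 7296 CPM at high light (log2 fold change 1.205 ± 0.22, FDR 0.00109). *VTC2* and *VTC5*, which encode the committed enzyme of ascorbate synthesis, rose by 1.19 ± 0.18 and 1.53 ± 0.15, and *VTE1*, the tocopherol cyclase, by 1.15 ± 0.14. *CAT3* had the opposite sign (3811, 3543 and 4735 CPM at low light and 1978, 2093 and 2712 CPM at high light, log2 fold change -0.83 ± 0.17) and missed the fold limit. The cytosolic peroxidase gene *APX2*, known from stronger light stress, was scarce under both conditions (0.348, 1.09 and 0.351 CPM at low light and 0.0690, 0.526 and 0.835 CPM at high light, FDR 0.805), and the zinc finger genes *ZAT10* and *ZAT12* had log2 fold changes of 0.85 ± 0.13 and 0.52 ± 0.15.

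Phenylpropanoid genes, which turn phenylalanine into sinapate esters, lignin and flavonoid precursors, were called higher in 8 of 20 cases and lower in 0 (median 0.76). The share over all genes was 10.1% higher. *PAL1*, one of the phenylalanine ammonia lyases at the entry of the pathway, was at 6.32, 5.28 and 5.97 CPM at low light and 33.6, 18.6 and 16.03 CPM at high light, with high light replicate 1 highest and no overlap (log2 fold change 1.95 ± 0.25, FDR 9.33e-05). *PAL2* had higher counts and a log2 fold change of 0.67 ± 0.13. *C4H*, the single cinnamate hydroxylase, was at 47.2, 43.9 and 38.5 CPM at low light and 114, 90.4 and 91.0 CPM at high light (log2 fold change 1.19 ± 0.13, FDR 2.60e-05). Of the 4-coumarate ligases, *4CL2* rose by 2.72 ± 0.27 and *4CL5* by 2.16 ± 0.47, while the call of *4CL3* (FDR 0.0494) was lost without any one of 4 of the 6 libraries. The middle steps leading to lignin had smaller values, such as 0.69 ± 0.11 for *CCOAOMT1* and -0.16 ± 0.13 for *HCT*.

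At the sinapate end, the glucosyltransferases stood out. *UGT84A2*, which makes sinapoylglucose, was at 0.348, 0.364 and 0.292 CPM at low light and 10.2, 7.13 and 7.40 CPM at high light (log2 fold change 4.59 ± 0.28, FDR 3.75e-07). *UGT84A1*, which glucosylates hydroxycinnamates, was at 0.597, 0.425 and 0.234 CPM at low light and 4.42, 3.04 and 3.12 CPM at high light (log2 fold change 3.02 ± 0.35, FDR 4.73e-05). Both were close to the floor at low light and clear of it in every high light library. *FAH1*, the ferulate hydroxylase of sinapate synthesis, was at 12.2, 18.8 and 24.1 CPM at low light and 41.3, 44.4 and 35.3 CPM at high light (log2 fold change 1.14 ± 0.20, FDR 0.000876), a call lost without low light replicate 1, and *SNG1*, which forms sinapoylmalate from sinapoylglucose, was at 226, 248 and 253 CPM at low light and 233, 258 and 221 CPM at high light (log2 fold change -0.03 ± 0.11, FDR 0.854).

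Flavonoid enzymes were called higher in 8 of 11 genes tested of 15 (10.1% of all genes were), and lower in 0, with a median of 2.03. Without a count filter 9 of 14 were called higher, and only 3 genes, all called higher, had at least 10 counts in every library. *F3H*, flavanone 3-hydroxylase, was at 3.63, 6.01 and 4.27 CPM at low light and 98.1, 70.0 and 83.5 CPM at high light (log2 fold change 4.18 ± 0.19, FDR 4.28e-08). Another counted gene covers 93.8% of its exon bases, so reads of both may not be told apart unless strand was used in counting. *CHIL*, an auxiliary protein of chalcone formation, was at 0.647, 1.52 and 1.29 CPM at low light and 13.5, 8.71 and 9.74 CPM at high light (log2 fold change 3.22 ± 0.29, FDR 6.73e-06). *CHI* rose by 2.03 ± 0.32, *UGT78D2*, a flavonoid 3-O-glucosyltransferase, by 1.56 ± 0.16 and *TT19*, a glutathione S-transferase of pigment transport, by 3.36 ± 0.64. *FLS1*, the flavonol synthase, had 2 counts at low and 95 counts at high light, a ratio of 51.4 (95% counting interval 13.9 to 431). The late anthocyanin genes had few reads: *LDOX* was at 0.398, 0.303 and 0.409 CPM at low light and 0.483, 0.292 and 0.946 CPM at high light (FDR 0.376), and *DFR*, tested in neither direction for want of counts, reached 2.45 CPM in high light replicate 3 alone.

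The pathway's regulators were scarce as well, and 5 of 10 had enough counts to be tested. Of these, 3 were called higher (10.1% of all genes were) and 0 lower. The count filter admits genes counted almost only at high light, as for *PAP2* and *MYB111* below, which favours calls of higher genes. Without a filter 3 of 9 were called higher, and with at least 10 counts in every library 1 of 3. *PAP1*, a MYB activator of anthocyanin genes, was at 0.896, 0.789 and 0.760 CPM at low light and 11.7, 14.1 and 21.0 CPM at high light without overlap (log2 fold change 4.25 ± 0.27, FDR 4.89e-07). Its homologue *PAP2* had 3 counts at low and 347 counts at high light, a ratio of 125 (95% counting interval 42.5 to 610). *MYB111*, an activator of flavonol genes, had no counts at low light and 0.414, 0.175 and 0.223 CPM at high light. Their mean of 0.271 CPM was at least 1.61-fold higher than the mean floor of 3 counts per low light library, and replicate 2 was at the floor. *MYBL2*, a repressor of the pathway, was at 36.9, 50.7 and 75.1 CPM at low light and 96.1, 86.5 and 83.0 CPM at high light, a log2 fold change of 0.71 ± 0.20 that was not called.

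**Figure D2:**
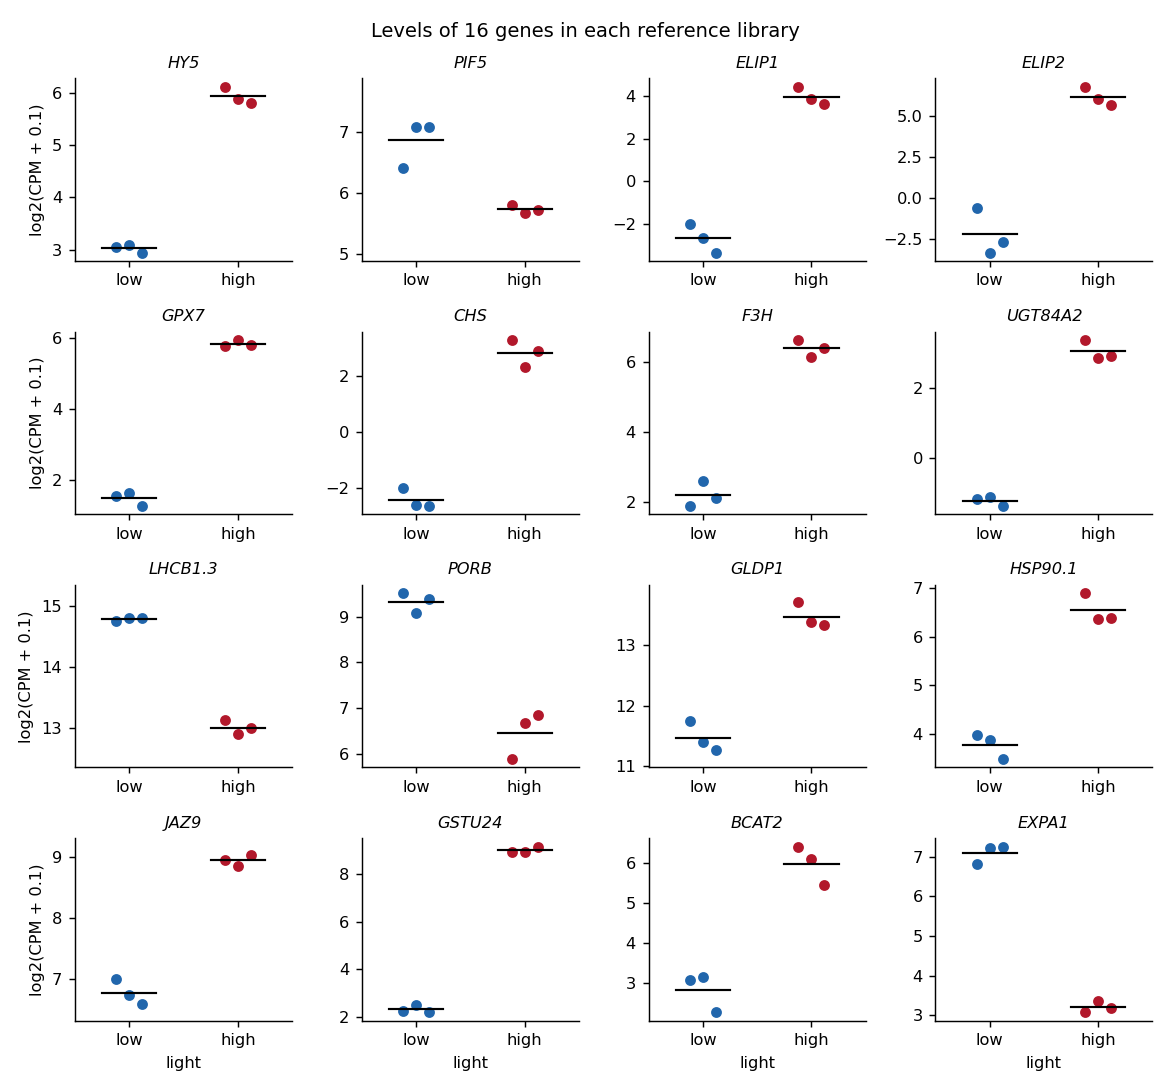
Levels of 16 genes in the 6 reference libraries. Each panel plots log2(CPM + 0.1) on the y axis for the 3 low light (blue) and 3 high light (red) libraries in the order of their replicate numbers, with a black bar at the mean of the plotted values; the y range differs between panels. The light levels do not overlap in any panel: *HY5*, *ELIP1*, *ELIP2*, *GPX7*, *CHS*, *F3H*, *UGT84A2*, *GLDP1*, *HSP90.1*, *JAZ9*, *GSTU24* and *BCAT2* are higher and *PIF5*, *LHCB1.3*, *PORB* and *EXPA1* lower at high light.

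Light-harvesting genes were called lower in 5 of 21 cases (6.57% of all genes were) and higher in 1, with a median of -0.65. The 5 encode subunits of both the major and the minor antenna of photosystem II, and other major antenna genes such as *LHCB1.1* (-0.85 ± 0.21) and *LHCB3* (-0.74 ± 0.24) were not called. *LHCB1.3*, which encodes a subunit of the main trimeric antenna, had the most counts among the genes called lower, with 27809, 28655 and 28599.5 CPM at low light and 8942, 7616 and 8199 CPM at high light (log2 fold change -1.78 ± 0.17, FDR 1.19e-05). *LHCB1.4* was at 8023, 7293 and 9479.6 CPM at low light and 3243, 1801 and 2007 CPM at high light (log2 fold change -1.81 ± 0.23, FDR 7.38e-05). Low and high light did not overlap in these or in *LHCB1.2*, *LHCB4.2* and *LHCB6*, which fell by 1.41, 1.09 and 1.19 on the log2 scale. In 10 of 21 genes the high light libraries lay wholly below the low light libraries, against 27.4% of all genes, among them *LHCB5* within the 2-fold limit (-0.94 ± 0.17). The photosystem I gene *LHCA1* overlapped, at 4559, 7826 and 8525 CPM at low light and 6691, 5531 and 5927 CPM at high light (log2 fold change -0.20 ± 0.22). Low light replicate 1 had the lowest low light value in 17 of the 21 genes, and without it 10 were called lower. With the scaling of all 27 libraries 3 were, and *LHCB4.2* also lost its call without low light replicate 3. *LHCB7*, a rarely transcribed relative, was the exception, at 36.6, 41.7 and 39.1 CPM at low light and 116, 99.8 and 114 CPM at high light (log2 fold change 1.49 ± 0.11, FDR 1.65e-06). Near-identical copies blur single members: 10.6% to 20.5% of the 50-base exon windows of the LHCB1 genes occur elsewhere in the genome.

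Chlorophyll synthesis shared this direction, with 9 of 21 genes called lower and 1 higher (median -0.90), against 6.57% and 10.1% of all genes. *PORB*, a light-dependent protochlorophyllide reductase, was at 729.7, 539 and 668 CPM at low light and 59.1, 102 and 115 CPM at high light (log2 fold change -2.81 ± 0.22, FDR 2.94e-06). The other major reductase, *PORC*, was at 172, 158 and 153 CPM at low light and 163, 178 and 184 CPM at high light (log2 fold change 0.12 ± 0.11), so the family did not move as a whole. *CHLM*, the Mg-protoporphyrin methyltransferase, was at 415, 407 and 398 CPM at low light and 193, 176 and 163 CPM at high light (log2 fold change -1.196 ± 0.11, FDR 9.05e-06). *CAO*, which makes chlorophyll b, was at 222, 302 and 312 CPM at low light and 125, 125 and 125 CPM at high light (log2 fold change -1.15 ± 0.14, FDR 4.74e-05). *GLK1*, a transcription factor that promotes antenna and chlorophyll genes, was at 266, 335 and 310.2 CPM at low light and 117, 112 and 138 CPM at high light (log2 fold change -1.31 ± 0.13, FDR 1.31e-05), and its partner *GLK2* had a log2 fold change of -0.98 ± 0.12, just inside the limit. By contrast *GNL*, a GATA factor that also promotes greening, was at 2.39, 2.73 and 1.29 CPM at low light and 19.9, 14.96 and 12.2 CPM at high light (log2 fold change 2.87 ± 0.26, FDR 8.27e-06). The number called lower was 5 without high light replicate 1, 6 without low light replicate 2 and 4 with the scaling of all 27 libraries.

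Of 18 Calvin cycle genes 1 was called higher, *CP12-2*, and 0 lower, a share no higher than the background of 10.1%. This regulator of phosphoribulokinase was at 656, 441 and 372 CPM at low light and 1430.5, 821 and 850.2 CPM at high light (log2 fold change 1.08 ± 0.24, FDR 0.00395), a call that was lost without high light replicate 1 or low light replicate 3. The Rubisco subunit gene *RBCS1A* was at 17073, 16428 and 13208 CPM at low light and 11778, 10319 and 10119 CPM at high light (log2 fold change -0.54 ± 0.17) and the Rubisco activase gene *RCA* at 21194, 21369 and 17051 CPM at low light and 26703, 18181 and 18722 CPM at high light (FDR 0.75). Of 16 photorespiratory genes, a list drawn up after the values were seen, 4 were called higher and 0 lower, with a median of 0.36. Of 26 tested genes that the annotation assigns to photorespiration, 2 were called higher and 0 lower, again a share near the background, and at any fold 4 higher and 9 lower genes had an FDR below 0.05 (median -0.04, and 0.15 with the scaling of all 27 libraries). *GLDP1* and *GLDP2* encode the P protein of glycine decarboxylase, which releases the photorespiratory CO2. *GLDP1* was at 3443, 2712 and 2463 CPM at low light and 13291, 10572 and 10238 CPM at high light (log2 fold change 1.98 ± 0.19, FDR 1.04e-05). *GLDP2* was at 1341, 1248 and 1074 CPM at low light and 6942, 4253 and 4442 CPM at high light (log2 fold change 2.09 ± 0.20, FDR 1.25e-05). *AGT*, the serine:glyoxylate aminotransferase, rose by 1.02 ± 0.17 and *GGT2*, a glutamate:glyoxylate aminotransferase, by 1.49 ± 0.12, whereas other subunits of the same enzyme complex and cycle, such as *GDCH* (0.60 ± 0.15) and *SHM1* (0.15 ± 0.14), were not called. *AGT* was not called without high light replicate 1, without low light replicate 3 or with upper-quartile scaling.

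Heat shock genes were called higher in 6 of 19 tested chaperone genes and 3 of 12 heat shock factor genes, and lower in 0. The background was 10.1% of all genes called higher. *HSP90.1*, the inducible cytosolic HSP90, was at 15.6, 14.6 and 11.1 CPM at low light and 119, 82.1 and 84.1 CPM at high light (log2 fold change 2.79 ± 0.18, FDR 4.87e-07). The gene *HSP70* (AT3G12580), for an inducible cytosolic chaperone, was at 45.7, 44.7 and 34.0 CPM at low light and 264, 163 and 202 CPM at high light (log2 fold change 2.34 ± 0.18, FDR 2.28e-06). The high light values of both lay far above the low light values, with replicate 1 highest. Among small heat shock proteins, *AT2G29500* and *AT1G07400* rose by 1.34 ± 0.22 and 1.32 ± 0.18, but *HSP17.4* (0.25 ± 0.26), *HSP18.2* (0.33 ± 0.26) and the chloroplast *HSP21* (-0.95 ± 0.64) were not called. *HSP101*, a disaggregase, and *HSP17.6II* lost their calls without high light replicate 1. Of the factors, *HSFA8* was at 5.82, 4.01 and 4.86 CPM at low light and 12.6, 9.59 and 11.1 CPM at high light (log2 fold change 1.17 ± 0.18, FDR 0.000376). *HSFA2*, which sustains the heat response, was at 10.9, 12.3 and 10.5 CPM at low light and 24.8, 20.7 and 23.0 CPM at high light (log2 fold change 1.03 ± 0.13, FDR 7.80e-05), a separation close to 2-fold whose call was lost without high light replicate 1 or low light replicate 3. *HSFA7A* (FDR 0.0393) was called in 1 of 6 fits that left out a library. Without high light replicate 1, without low light replicate 3 or with upper-quartile scaling, 1 of the 12 factors was called, a share near the background. *BIP3* and *BZIP60*, a chaperone and a transcription factor of the endoplasmic reticulum stress response, rose by 2.44 ± 0.36 and 1.06 ± 0.14, the latter not without low light replicate 1.

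Jasmonate genes, of the oxylipin hormone of wounding and defence, were called higher in 13 of 18 cases and lower in 0. Their median was 1.49, and 10.1% of all genes were called higher. In all 18 the high light libraries lay above the low light libraries, as they did in 5134 of the 19353 genes tested. In biosynthesis, *OPR3*, the peroxisomal 12-oxophytodienoate reductase, was at 76.8, 89.2 and 68.8 CPM at low light and 258, 275 and 387 CPM at high light (log2 fold change 1.97 ± 0.17, FDR 4.33e-06). *LOX4*, a 13-lipoxygenase, was at 27.4, 29.8 and 26.4 CPM at low light and 95.6, 88.0 and 97.7 CPM at high light (log2 fold change 1.75 ± 0.11, FDR 3.33e-07). *LOX2* and *AOS*, with more counts, were separated between light levels but had log2 fold changes of 0.61 ± 0.16 and 0.46 ± 0.12. The JAZ repressors, which jasmonate both induces and removes, included *JAZ9* at 127, 106 and 96.1 CPM at low light and 498, 460.5 and 523 CPM at high light (log2 fold change 2.17 ± 0.13, FDR 3.39e-07). *JAZ7* was at 1.05, 0.486 and 1.11 CPM at low light and 3.38, 10.2 and 13.0 CPM at high light (log2 fold change 3.32 ± 0.47, FDR 0.000181), with wide scatter among the high light libraries. The other JAZ genes called had log2 fold changes of 1.22 (*JAZ6*) to 2.22 (*JAZ8*), and *JAZ3* and *JAZ12* were not called. *MYC2*, the master transcription factor, rose by 1.14 ± 0.13, with 98.5% of its exon bases shared with another counted gene. The vegetative storage protein *VSP2*, a late output, was at 1.29, 0.607 and 0.409 CPM at low light and 18.8, 19.3 and 21.1 CPM at high light (log2 fold change 4.62 ± 0.27, FDR 2.60e-07). *CORI3*, a jasmonate-induced aminotransferase-like gene taken as a marker of the lower mesophyll, was at 672, 644 and 756 CPM at low light and 1249, 1501 and 2024 CPM at high light (log2 fold change 1.204 ± 0.17, FDR 0.000212). *OPR2*, a cytosolic reductase outside the list and named here after its values were seen, was at 10.3, 12.7 and 8.31 CPM at low light and 183, 168 and 178 CPM at high light (log2 fold change 4.08 ± 0.15, FDR 1.40e-08).

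Stress transcription factors were called higher in 6 of 19 cases and lower in 0, against 10.1% and 6.57% of all genes. *WRKY33*, a regulator of pathogen defence, was at 159, 175 and 183 CPM at low light and 411, 394 and 413 CPM at high light (log2 fold change 1.24 ± 0.11, FDR 6.26e-06). *WRKY40* was at 50.3, 52.4 and 47.8 CPM at low light and 113, 110.2 and 109 CPM at high light (log2 fold change 1.14 ± 0.10, FDR 5.48e-06). The groups were tight and apart in both. *WRKY6* and *RAP2.6* rose by 1.98 ± 0.21 and 2.50 ± 0.39, *ERF104* and *ERF1A* by 1.16 ± 0.15 and 1.01 ± 0.12; *ERF104* lost its call without high light replicate 1 and *ERF1A* without high light replicate 1 or low light replicate 2. The cold-response factors *CBF1*, *CBF2* and *CBF3* had log2 fold changes of -0.34 ± 0.22, -0.08 ± 0.25 and -0.12 ± 0.28, and *DREB2A*, of drought and heat, 0.69 ± 0.16.

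Several of these groups also have high counts in low light reference cells digested without inhibitors, so their levels there are given beside the light response. These 3 libraries are set beside the others on 1 scale of all 27 libraries, and the low light libraries with inhibitors serve both comparisons. The libraries without inhibitors came from other protoplast pools and were deeper (21556028 to 26358814 counts). An effect of the inhibitors therefore cannot be told apart from a difference between preparations. *LOX4* was at 23.3, 25.6 and 21.9 CPM with inhibitors at low light, 94.6, 83.9 and 93.9 CPM with inhibitors at high light and 2329, 2428 and 2066 CPM without inhibitors at low light. For *HSP90.1* the values were 13.3, 12.5 and 9.17 CPM with inhibitors at low light, 118, 78.3 and 80.8 CPM at high light and 2193, 1316 and 1299.9 CPM without inhibitors. In both genes the high light level lay between the other levels. *VSP2* had another order, with 1.101, 0.521 and 0.340 CPM with inhibitors at low light, 18.6, 18.4 and 20.3 CPM at high light and 0.900, 2.06 and 1.74 CPM without inhibitors. *ELIP2* was at 0.466, 0 and 0.0485 CPM, 109, 62.2 and 49.4 CPM and 0.514, 0.503 and 0.762 CPM under these conditions. For both the high light libraries were the highest of these 9. The libraries without inhibitors lay wholly above those with inhibitors at low light in 15 of 18 jasmonate genes, 19 of 19 stress transcription factors, 18 of 19 heat shock protein genes and 11 of 12 heat shock factor genes, against 30.1% of all tested genes. In phenylpropanoid and sinapate genes that held for 11 of 20, in antioxidant genes for 6 of 16 and in the *COP1*, *HY5* and B-box list for 7 of 15. In flavonoid enzymes it held for 4 of 11 and in photoprotection for 2 of 16. Whether digestion had a part in the light difference was not tested.

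**Figure D3:**
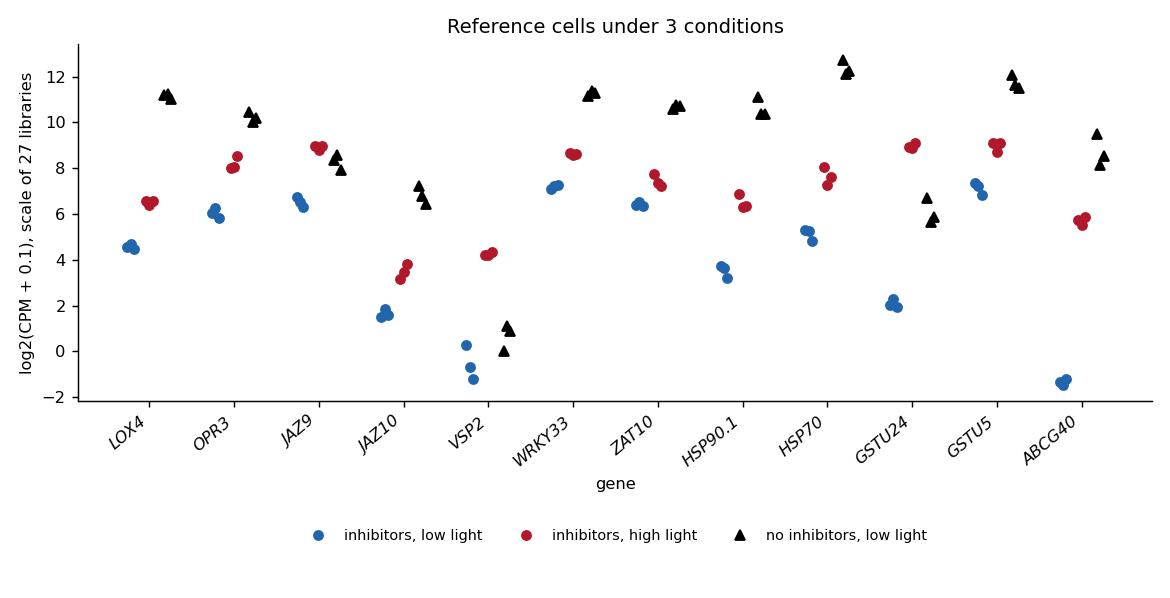
Levels of 12 genes in reference cells under 3 conditions. The y axis is log2(CPM + 0.1) on the scale of all 27 libraries, with 3 libraries for low light with inhibitors (blue circles), high light with inhibitors (red circles) and low light without inhibitors (black triangles). The triangles are highest for *LOX4*, *OPR3*, *JAZ10*, *WRKY33*, *ZAT10*, *HSP90.1*, *HSP70*, *GSTU5* and *ABCG40*, while the red circles are highest for *VSP2*, *GSTU24* and *JAZ9*.

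Detoxification genes were among the largest rises. Of 24 tested of 28 tau glutathione S-transferases, a family listed after its values were seen, 18 were called higher and 0 lower. Their median was 3.13, and 10.1% of all genes were called higher. Without a count filter 18 of 28 members were called higher, and with at least 10 counts in every library 8 of 13. These enzymes conjugate glutathione to reactive and foreign compounds. *GSTU24* was at 4.63, 5.58 and 4.45 CPM at low light and 493, 492 and 574 CPM at high light (log2 fold change 6.73 ± 0.16, FDR 9.23e-10). *GSTU19* was at 386, 393 and 352 CPM at low light and 3317, 3137 and 3739.8 CPM at high light (log2 fold change 3.17 ± 0.14, FDR 3.92e-08). *GSTU1* was at 2.99, 4.13 and 2.398 CPM at low light and 142, 116 and 134 CPM at high light (log2 fold change 5.37 ± 0.18, FDR 5.68e-09). In 19 of 24 tested members the high light libraries lay wholly above the low light libraries, against 5134 of the 19353 genes tested. They lay wholly below in 0 members, against 27.4% of all genes. Not called were *GSTU18* (-0.05 ± 0.13), *GSTU20* (-0.57 ± 0.26) and *GSTU27* (0.13 ± 0.16), among others. On few counts, *GSTU9* had 3 at low and 126 at high light, a ratio of 45.5 (95% counting interval 15.2 to 223). The low light libraries without inhibitors lay wholly above those with inhibitors in 18 of 24 tested members, against 30.1% of all tested genes. Some members were lower there than at high light: *GSTU24* was at 103, 50.4 and 58.5 CPM without inhibitors on the scale of 27 libraries, against 488, 469 and 551 CPM at high light.

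The other genes with the largest rises act on small molecules as well. *ABCG40*, an ABC transporter that takes up abscisic acid in guard cells, was at 0.348, 0.303 and 0.409 CPM at low light and 52.9, 47.6 and 61.3 CPM at high light (log2 fold change 7.22 ± 0.20, FDR 1.97e-09). *ABCB4*, an auxin transporter known from roots, was at 0.249, 0.303 and 0.585 CPM at low light and 30.6, 82.5 and 60.8 CPM at high light (log2 fold change 7.25 ± 0.44, FDR 3.59e-07). *UGT74E2*, which glucosylates indole-3-butyric acid, was at 1.99, 2.43 and 2.92 CPM at low light and 175, 168 and 147 CPM at high light (log2 fold change 6.07 ± 0.16, FDR 1.97e-09). *CYP81D11*, a cytochrome P450 induced by oxylipins and foreign compounds, and *SAG13*, a dehydrogenase gene used as a senescence marker, rose by 6.05 ± 0.20 and 6.41 ± 0.31, with FDR 5.68e-09 and 5.34e-08. Light levels without overlap were a condition for naming these 5 genes. *ECS1*, one of the most counted genes called higher, was at 1125, 2022 and 1371 CPM at low light and 4555, 3114 and 3439.8 CPM at high light (log2 fold change 1.298 ± 0.22, FDR 0.000671).

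Sugar and starvation genes were called higher in 6 of 18 tested of 21 (10.1% of all genes were), and 0 were called lower. *GPT2*, a glucose-phosphate translocator of the chloroplast envelope that sugar induces, was at 0.647, 0.364 and 0.468 CPM at low light and 7.45, 6.90 and 9.58 CPM at high light (log2 fold change 3.98 ± 0.27, FDR 9.44e-07). *APL3*, a sugar-induced subunit of ADP-glucose pyrophosphorylase, was at 18.4, 20.8 and 22.3 CPM at low light and 49.9, 59.5 and 76.0 CPM at high light (log2 fold change 1.59 ± 0.16, FDR 1.25e-05). Genes known for induction in the dark or by sugar shortage were also higher: *BCAT2*, a branched-chain aminotransferase, was at 8.26, 8.74 and 4.68 CPM at low light and 85.4, 68.4 and 43.5 CPM at high light (log2 fold change 3.18 ± 0.27, FDR 4.20e-06). *ASN1*, asparagine synthetase, was at 99.7, 83.9 and 103 CPM at low light and 619, 399 and 271 CPM at high light (log2 fold change 2.17 ± 0.24, FDR 3.37e-05). In both, high light replicate 1 was highest and replicate 3 lowest, and the groups did not overlap. *DIN1* and *DIN10* rose by 1.32 ± 0.21 and 1.16 ± 0.16, *DIN10* not without high light replicate 1. Members with opposite textbook responses to sugar were thus called in the same direction. The 5 trehalose-phosphate synthase-like genes had log2 fold changes of -0.38 (*TPS10*) to 0.76 (*TPS11*), and 0 of them were called.

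Clock genes were called higher in 2 of 19 cases and lower in 0, a share near the background of 10.1%. GI was at 20.8, 15.4 and 29.1 CPM at low light and 61.5, 65.7 and 69.7 CPM at high light (log2 fold change 1.59 ± 0.19, FDR 4.72e-05). *PRR9* rose by 1.22 ± 0.27, a call lost without low light replicate 1, and 41.0% of its exon windows are repeated in the genome. *LHY*, a morning factor, was at 136, 169.9 and 158 CPM at low light and 94.9, 98.5 and 98.4 CPM at high light (log2 fold change -0.67 ± 0.11) and its partner *CCA1* at 106, 182 and 154 CPM at low light and 204, 176 and 176 CPM at high light (FDR 0.144).

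Cell wall genes were called in both directions. Of 17 expansin and XTH genes tested, 4 were called higher and 6 lower, against 10.1% and 6.57% of all genes. *EXPA1*, an alpha-expansin that loosens walls, was at 112, 148 and 153 CPM at low light and 8.28, 10.2 and 8.91 CPM at high light (log2 fold change -3.91 ± 0.16, FDR 1.94e-08). *EXPA8* was at 15.73, 19.9 and 21.2 CPM at low light and 3.45, 2.28 and 3.79 CPM at high light (log2 fold change -2.57 ± 0.20, FDR 2.57e-06), and over all 11 alpha-expansins tested of 24 annotated, a list made after the values were seen, 5 fell and 1 rose, *EXPA9*, on 0.334 to 0.552 CPM at high light, a call lost without any one of 4 libraries. XTH enzymes cut and rejoin xyloglucan: *XTH24* was at 122.6, 147 and 102 CPM at low light and 606, 479.7 and 323 CPM at high light (log2 fold change 1.92 ± 0.21, FDR 3.04e-05), and *XTH30* was called higher as well. *XTH23* and *XTH22* rose by 2.52 ± 0.28 and 1.03 ± 0.14, the latter not without high light replicate 1 or low light replicate 3. *XTH4* and *XTH7* fell by 1.48 and 2.69 on the log2 scale. *XTH9* was called lower (-1.95, FDR 0.0175) but lost the call without any 1 of 4 libraries.

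The largest falls, under the same limits on overlap and level, also included growth-related and regulatory genes. *GASA6*, a gibberellin-regulated peptide gene, was at 156, 137 and 199 CPM at low light and 2.35, 3.39 and 5.18 CPM at high light (log2 fold change -5.47 ± 0.24, FDR 3.55e-08). *AT5G02760*, annotated as a type 2C protein phosphatase, was at 14.5, 10.9 and 42.8 CPM at low light and 0, 0.468 and 0.334 CPM at high light (log2 fold change -6.30 ± 0.69, FDR 2.94e-05), with low light replicate 3 highest. The bZIP factor genes *BZIP61* and *BZIP34* fell by 4.72 and 3.64, and *ESE3*, of the AP2/ERF family, by 4.06 on the log2 scale. *DGR2*, a gene of the DUF642 wall protein family, was at 54.7, 40.7 and 60.1 CPM at low light and 4.55, 3.45 and 4.29 CPM at high light (log2 fold change -3.66 ± 0.18, FDR 6.48e-08). *MEE47* (-4.10 ± 0.33), *AT5G03350*, a legume lectin family gene (-4.06 ± 0.40), *AT5G62280* (-3.77 ± 0.48) and *EXPA1* complete the 10 largest falls under these limits. Light levels do not overlap in any of the 10, because this was a condition of the choice.

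The palisade cells sorted from the same 6 pools give a comparison for the size of the response. In palisade cells 1501 genes (8.07% of 18600 tested) were called higher and 958 (5.15%) lower. Of 18330 genes tested in both populations, 1172 were called higher in both, which is 62.5% of the 1875 calls in reference cells and 78.9% of the 1486 in palisade cells. For lower genes 662 were shared, 54.5% of 1215 and 69.7% of 950. No gene was called in opposite directions. The difference in response was tested as an interaction with the pool as a block. It passed an FDR of 0.05 for 1112 of 20057 genes (5.54%): 745 with a more positive change in reference cells (3.71%) and 367 with a more negative one (1.83%). Of the genes called higher in reference cells, 353 had a significantly larger rise there than in palisade cells and 61 a smaller one; of those called lower, 77 had a larger and 19 a smaller fall. The number of interactions was 9 without the pool block, 134 with the replicate number in its place and 587 by DESeq2. With a library left out it was lowest, at 611, without high light replicate 2.

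Interactions within lists are read against the 3.71% and 1.83% above. Of 8 ER chaperone and stress genes, 7 had a more positive response in reference cells, led by *BIP2* (0.85 ± 0.15, FDR 0.000204) and *CNX1* (0.80 ± 0.13, FDR 0.000109); their own responses were 0.56 in reference and -0.25 in palisade cells for *BIP2*, and 0.12 and -0.64 for *CNX1*. Of the exon windows of *BIP2*, 24.0% are repeated in the genome. Stress transcription factors had 8 of 19, with *WRKY33* at 1.24 against 0.46 (0.81 ± 0.10, FDR 1.88e-06), and jasmonate genes 6 of 18, with *LOX4* at 1.75 against 0.62 (1.15 ± 0.12, FDR 2.19e-07). In the antenna list 9 of 21 interactions were positive, that is, with a smaller fall or none in reference cells, such as *LHCB3* at -0.74 against -1.298 (0.58 ± 0.09, FDR 7.96e-05), but 3 remained without low light replicate 2 and 4 without high light replicate 2. *HSP90.1* rose more in reference cells (2.79 against 1.84, interaction 0.96 ± 0.14, FDR 1.90e-05). *HCT*, of the lignin pathway, fell in palisade but not in reference cells (-0.16 against -1.14, interaction 1.02 ± 0.11, FDR 4.52e-07). Negative interactions included the flavonoid gene *CHI* (2.03 against 3.90, interaction -1.82 ± 0.43, FDR 0.00645), the shade gene *HAT1* (-1.75 against -0.46, interaction -1.29 ± 0.17, FDR 2.93e-06) and *XTH4* (-1.48 against -0.33, interaction -1.09 ± 0.14, FDR 1.87e-06).

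The 5 named genes with the largest positive and the 5 with the largest negative interaction are given on the scale of these 12 libraries. *ABCG40* was at 0.328, 0.284 and 0.380 CPM at low and 49.7, 44.5 and 56.8 CPM at high light in reference cells. In palisade cells it was at 1.04, 0.135 and 0.247 CPM at low and 11.01, 8.15 and 8.30 CPM at high light. The reference libraries reached higher values at high light, with an interaction of 2.96 ± 0.54, FDR 0.000396. *AO1*, an aldehyde oxidase, rose from 0.515, 0.341 and 0.543 to 9.97, 13.8 and 9.65 CPM in reference cells, and its palisade values were 3.49, 1.35 and 2.41 CPM at low and 9.65, 12.4 and 5.26 CPM at high light (2.69 ± 0.34, FDR 2.57e-06). *ABCB4*, *IGMT3*, an O-methyltransferase of indole glucosinolates, and *AT5G22140*, annotated as an FAD-dependent oxidoreductase, had interactions of 2.53, 2.50 and 2.24, though 44.6% of the exon windows of *IGMT3* are repeated. On the negative side, *ABCC10*, an ABC transporter of the multidrug resistance type, was at 24.7, 26.3 and 20.1 CPM at low and 165, 184 and 189.6 CPM at high light in reference cells. It was at 0.667, 0 and 0.309 CPM at low and 15.3, 18.8 and 17.0 CPM at high light in palisade cells, where the low light values were near the floor (-2.79 ± 0.34, FDR 1.10e-06), and the interaction was not called by DESeq2. *AT3G57830*, *AT5G44020*, *AACT1* and *AT2G30930* followed, with interactions of -2.04, -1.83, -1.68 and -1.60; the last 3 were not called in reference cells and were called higher in palisade cells. The interaction of *ABCG40* was lost without low light replicate 1 and that of *AACT1* without low light replicate 3.

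**Figure D4:**
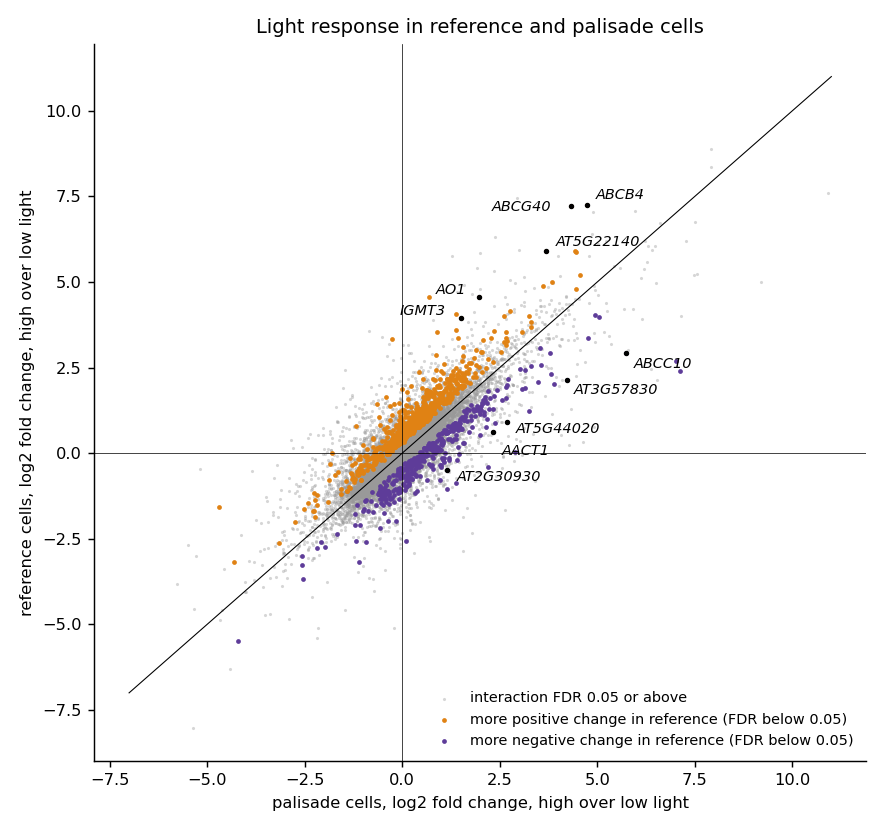
Light response of reference cells (y axis) against palisade cells (x axis), both as log2 fold change of high over low light. Each point is a gene tested in both populations and in the interaction; orange and purple points have an interaction FDR below 0.05 with a more positive or more negative change in reference cells, the line marks equal change and 10 genes with large interactions are named. Most points follow the line, *ABCG40* and *ABCB4* lie above it and *ABCC10* below it.

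Annotated processes were picked after the values were seen, and in some of them many small changes ran the same way. They share genes with the lists above, so they are not separate results. For example, *HSP90.1* had the largest rise in response to heat, *GSTU24* in response to cyclopentenone, and *LHCB1.4* the largest fall in photosynthesis. Of 365 tested genes annotated to translation, 10 were called lower and 2 higher, but in 228 the high light libraries lay wholly below the low light libraries, against 27.4% of all genes. Ribosome biogenesis had 65 such genes of 100 with 4 called lower, and medians were -0.39 and -0.42. With the scaling of all 27 libraries these medians were -0.20 and -0.23. Against backgrounds of 10.1% higher and 6.57% lower, response to wounding had 26 genes called higher of 59 and 1 lower, lignin biosynthesis 11 of 20 higher, and response to high light intensity 6 of 18 higher. Microtubule-based process had 5 of 15 and unidimensional cell growth 10 of 39 called lower, while response to heat had 14 of 53 called higher, response to cyclopentenone 22 of 45 higher and 5 lower, and photosynthesis 1 of 67 higher and 8 lower.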

How the data were processed

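Messenger RNA of fluorescence-sorted leaf protoplasts was sequenced by the authors as stranded, single-end 50-base reads. The authors aligned the reads to TAIR10 with TopHat 2.0.9 and counted them per gene with HTSeq 0.6.1 in intersection-strict mode, and the deposited values are raw counts of every annotated gene for each library. Whether HTSeq used strand is not given in the sources used here, so overlapping genes are uncertain. Reads aligned to several places were not counted, which lowers near-identical copies. They made up 5.47% to 7.06% of reads at high light and 7.34% to 8.69% at low light.

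Groups were taken from the labels. Of 33602 genes per file, 133 chloroplast and 146 mitochondrial genes were left out, and a gene was tested when 3 or more of the 6 libraries had 2 counts or more, after the study's rule. Tests used edgeR 4.0.16 in R 4.3.3 (TMM scaling, quasi-likelihood F-test, Benjamini-Hochberg FDR), the 2 light levels unpaired because their pools differ. The interaction of light and population used 12 libraries with the pool as a block. The SE is the log2 fold change divided by the square root of F. Ratios on few counts carry a 95% exact counting interval; intervals and floors cover counting error only. The labels' pairing letters give each library of a group its own protoplast pool, but nothing says that the pools came from separately grown plants, so p-values measure the spread between these pools. No library repeated the values of another. The members and lists were chosen with earlier results of these data known. Genes named are list members, the 10 largest called rises and falls without overlap (at least 5 CPM in the higher group), the 5 most counted calls each way and the 5 largest significant interactions each way among genes called in either population (at least 5 CPM over 12 libraries); other choices are marked as made after values were seen. Alternatives were DESeq2 1.42.0, upper-quartile and RLE scaling, the likelihood ratio test, TREAT against 2-fold, no filter, at least 10 counts in every library, organelle genes kept, all 27 libraries, blocks, and each replicate left out. Names came from TAIR10.1, matched by identifier for 32835 nuclear genes, and 19328 tested genes had a promoter window. The procedure was tested on simulated data.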

Additional observations from a re-analysis of the deposited data

Results flagged for a closer look

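The light response differed between reference and palisade cells, by the interaction test, in 1112 genes, with 615 of them called in at least one population. The log2 differences, reference minus palisade, were 2.96 for *ABCG40*, 2.69 for *AO1*, 2.53 for *ABCB4*, 2.50 for *IGMT3* and 2.24 for *AT5G22140*, and -2.79 for *ABCC10*, -2.04 for *AT3G57830*, -1.83 for *AT5G44020*, -1.68 for *AACT1* and -1.60 for *AT2G30930*.

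Data outside the comparisons also stood above the low light libraries. The mean share of counts on mitochondrial genes was 0.0219% in the high light reference libraries, against 0.0123% at low light. The mean share of reads that overlapped several genes was 0.617%, against 0.414%. Their part in the results was not tested.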

How the results depend on the processing

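TREAT, which tests against a 2-fold difference itself, called 875 genes higher and 292 lower in place of 1949 and 1272. Scaling by all 27 libraries gave 839 lower. Both directions were within 1.5 times of the counts above under DESeq2 (1885 and 1147), upper-quartile scaling (1717 and 1588), the likelihood ratio test (2101 and 1414), RLE factors (1978 and 1224), no filter (1979 and 1250) and a minimum of 10 counts per library (1422 and 874). In palisade cells upper-quartile scaling moved the share of higher calls from 61.0% to 50.6% (1292 higher and 1261 lower). With 1 replicate left out, 1758 to 1930 genes were higher and 1091 to 1247 lower in reference cells, and 1292 to 1644 higher and 778 to 1003 lower in palisade cells. The interaction count was 587 with DESeq2, 9 with no pool block, 134 with a replicate block in place of the pool, and 611 to 1005 with 1 replicate left out.

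Replicate numbers do not pair low and high light libraries, which come from different pools: same-numbered libraries correlated at 0.13, -0.09 and 0.12 in their deviations and others at -0.22 to 0.18. A replicate block gave 1912 higher and 1251 lower in reference cells and 1493 and 920 in palisade cells.

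Of 2470 refits of 158 named called genes, 2328 stayed called, 142 did not (59 under TREAT) and 0 changed sign, with 99 genes called in every one. With each library left out in turn, 132 of these genes stayed called throughout and 26 did not. Of 100 refits of the 10 named interactions, 14 lost significance, 8 of them without the pool block. The causes were not tested. Depth limits the genes near 0.156 to 0.190 CPM.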
